A study of Mus musculus with 11 samples.

Results

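The epithelial keratin genes Krt5, Krt14, Krt15, Krt17, Krt6a, Krt7, Krt8, Krt18, Krt19 and Krt23 were examined in basal and luminal cells of the pubertal mouse mammary gland. They were chosen by name, with no measured value in the rule, and are 10 of the 27179 gene identifiers counted, beside 44 other keratin genes. All 10 passed the filter on low counts, which left 17370 genes for testing.

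Keratins form the intermediate filaments of epithelial cells. A type I keratin must pair with a type II keratin, so the filament depends on both partners. In the mammary gland Krt5 (type II) and Krt14 (type I) are the classical pair of the basal, or myoepithelial, layer, whereas Krt8 (type II) and Krt18 (type I) are the pair of simple epithelia and mark luminal cells. Krt7 is a further type II keratin of simple and glandular epithelia and Krt19 a small type I keratin of luminal cells. Krt15 and Krt17 are type I keratins of basal cells and skin appendages, Krt6a is a type II keratin best known from hair follicles and wounded epidermis, and Krt23 is a divergent type I keratin.

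The tissue came from C57BL/6 mice aged 5 weeks that carried E-cadherin-GFP, a reporter shared by every group. Terminal end buds (TEBs), the growing tips of the pubertal ductal tree, were microdissected from the subtending ducts under GFP light. From each structure, Lin- CD29+ CD24+ cells were sorted into luminal cells with high GFP and basal cells with low GFP, so each group is a gate on reporter brightness and not a single cell type. RNA-seq gave 3 libraries of basal duct, 3 of basal TEB, 2 of luminal duct (replicates 1 and 3) and 3 of luminal TEB, with at least 2 mice pooled per replicate, so p-values measure the spread between pools.

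The libraries held from 27989137 to 49221436 counts. Counts on mitochondrial genes ran from 4.34% to 37.5% of a library and were highest in basal TEB replicate 1 (37.5%) and luminal duct replicate 3 (28.5%). Levels are given in counts-per-million (CPM) scaled by TMM, and levels of different genes are compared only after division by gene length, as CPM per kb. Groups were compared with edgeR's quasi-likelihood test in 1 model over all libraries, and a gene was called at a Benjamini-Hochberg adjusted p (FDR) below 0.05. The labels of the cells were checked against 10 basal and 13 luminal genes that are not keratins. All 10 basal genes, among them Trp63 and Acta2, were called higher in basal than in luminal duct cells and 9 of 10 in TEBs, and 12 of 13 luminal genes were called lower in both. In bulk libraries a lower share of keratin-positive cells and less keratin RNA per cell cannot be told apart.

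The 10 genes lie in the keratin clusters of 2 chromosomes. Krt18, a type I gene, lies beside Krt8 among the type II genes on chromosome 15, at chr15:102028216-102032026 and chr15:101996711-102004342. The same chromosome carries Krt5 (chr15:101707069-101712905), Krt6a (chr15:101689928-101694305) and Krt7 (chr15:101412403-101427806). Chromosome 11 carries the type I genes Krt14 (chr11:100203162-100207510), Krt15 (chr11:100131759-100135949), Krt17 (chr11:100256215-100261029), Krt19 (chr11:100140810-100145926) and Krt23 (chr11:99477973-99493120). All are protein coding, and positions are those of RefSeq on GRCm38.p6. The counting summed each gene's exons, which here span from 1375 bases (Krt19) to 2258 bases (Krt6a).

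Promoter sequences from RefSeq matched 6 of the 10 genes, and no entry matched Krt15, Krt17, Krt6a or Krt19. The 150 bases before the annotated start are shown on the gene's strand for the type II genes Krt5, Krt7 and Krt8, for Krt18 as the partner of Krt8, and for Krt23, the type I gene whose TEB level did not follow that of Krt14. Capitals mark letters that match a searched motif on either strand.
Krt5 (chr15:101712906-101713055, minus strand): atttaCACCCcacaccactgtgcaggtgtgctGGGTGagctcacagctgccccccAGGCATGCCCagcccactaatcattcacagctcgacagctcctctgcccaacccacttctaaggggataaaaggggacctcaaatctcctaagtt
Krt7 (chr15:101412253-101412402, plus strand): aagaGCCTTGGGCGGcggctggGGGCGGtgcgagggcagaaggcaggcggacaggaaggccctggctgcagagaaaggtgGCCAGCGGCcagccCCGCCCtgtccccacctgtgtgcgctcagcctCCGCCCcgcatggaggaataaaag
Krt8 (chr15:102004343-102004492, minus strand): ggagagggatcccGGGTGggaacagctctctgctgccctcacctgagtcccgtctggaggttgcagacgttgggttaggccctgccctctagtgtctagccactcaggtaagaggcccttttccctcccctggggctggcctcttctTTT
Krt18 (chr15:102028066-102028215, plus strand): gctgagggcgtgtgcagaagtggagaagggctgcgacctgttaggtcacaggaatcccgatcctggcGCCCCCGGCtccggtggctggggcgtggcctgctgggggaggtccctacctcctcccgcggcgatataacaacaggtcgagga
Krt23 (chr11:99493121-99493270, minus strand): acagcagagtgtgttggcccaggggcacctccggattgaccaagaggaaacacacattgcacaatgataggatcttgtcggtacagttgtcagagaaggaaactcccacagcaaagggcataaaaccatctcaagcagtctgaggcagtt
Each window, from 250 bases before to 50 after the start, was searched on both strands for 6 motifs, and the share of all 32851 mouse promoter windows with a match is given beside each. The p53-family half-site, of the kind bound by p63, the basal factor encoded by Trp63, occurred in 1 of the 6 windows, at position -95 of Krt5, against 8.4% of all windows. The Sp1 motif GGGCGG occurred in Krt7 alone of the 6, where it matched 4 times, against 35.7% of all windows. The AP-2 motif GCCNNNGGC was found in Krt7 and Krt18, against 16.6% of all windows, and its first match in Krt7 overlaps one of Sp1. The letters TATAAA, searched as the TATA box, matched in Krt8 alone, across the start itself, against 13.6% of all windows. Only these exact letters were searched, so stretches such as the ataaaa printed for Krt5, Krt7 and Krt23 did not count. The short CACCC box occurred in 5 of the 6, the exception being Krt23, against 57.5% of all windows. The AP-1 motif TGANTCA occurred in 0 of the 6, against 7.8% of all windows. Krt23 held no match to any of the 6 motifs. The Krt14 window is set on another transcript start, which lies 1480 bases inside the annotated gene, and is not shown.

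**Figure D1:**
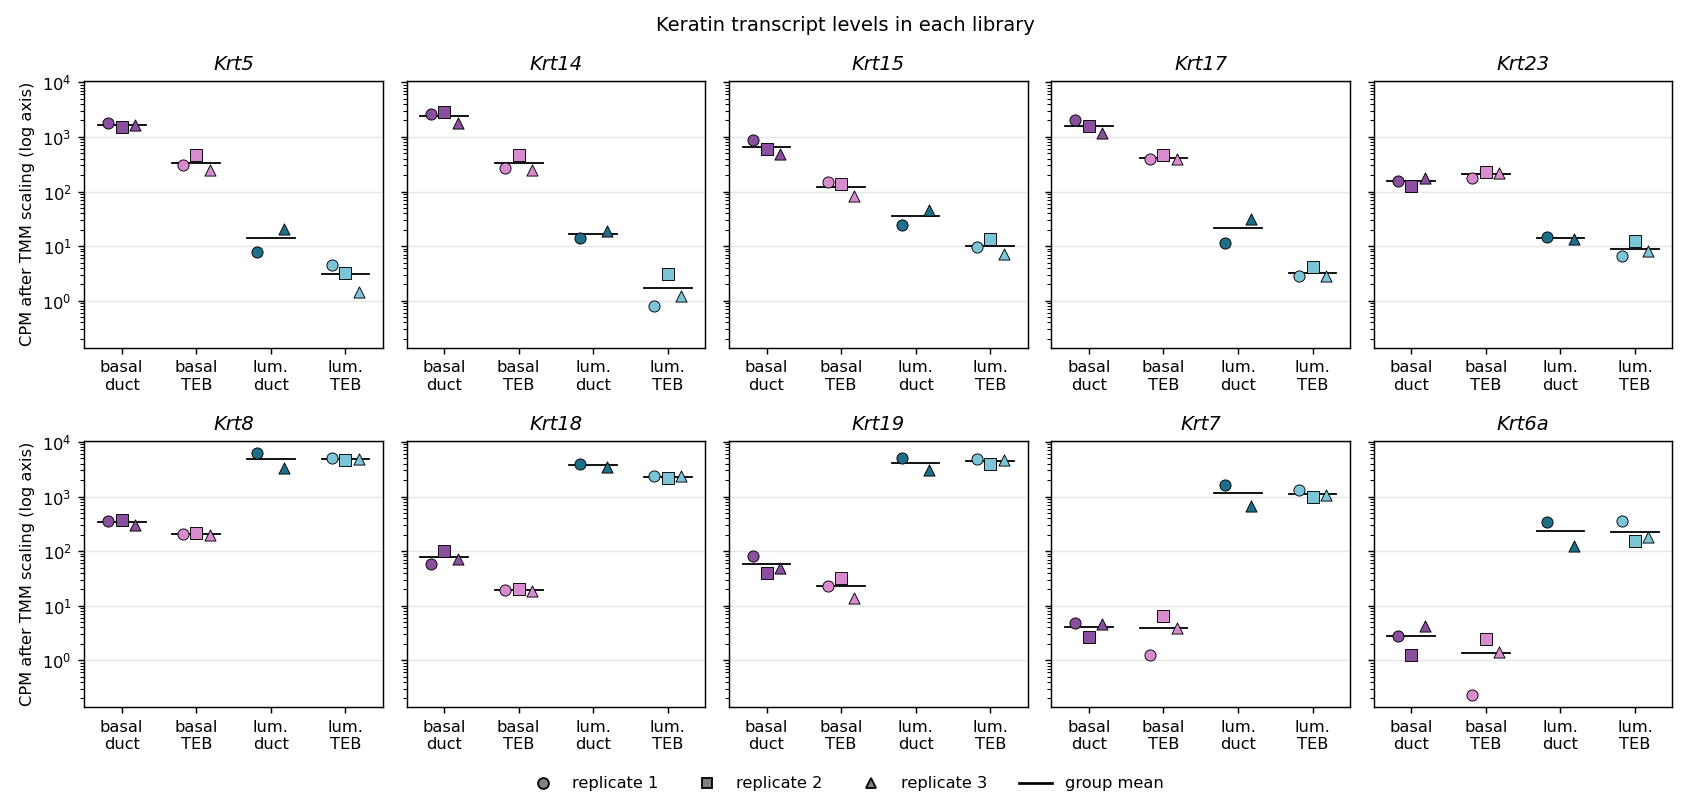
Levels of the 10 keratins in each library, as CPM after TMM scaling on a log axis, by group. Points are libraries, with the marker giving the replicate number, and bars are group means. Krt5, Krt14, Krt15, Krt17 and Krt23 were high in basal cells and the other 5 in luminal cells, and Krt14 fell from a mean of 2419 CPM in basal duct to 330.2 CPM in basal TEB.

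The first comparison asked which keratins separate the sorted layers. All 10 were called in ducts and all 10 in TEBs, where 22.3% and 25.1% of all tested genes were called. In each structure 5 were called higher in basal cells, as were 12.6% of all genes in ducts and 13.2% in TEBs, and 5 lower, as were 9.71% and 11.8%. Krt5, Krt14, Krt15, Krt17 and Krt23 were higher in basal cells and Krt8, Krt18, Krt19, Krt7 and Krt6a in luminal cells, in both structures, and no library of one layer overlapped the other. Of all genes, 46.0% in ducts and 49.8% in TEBs did not overlap in this way. The basal and luminal comparisons share no library between ducts and TEBs. Each of these calls was kept under every alternative setting tried.

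Among the luminal keratins, Krt7 had the widest difference. It lay at 1645 and 662 CPM in luminal duct and at 1302, 968 and 1054.5 CPM in luminal TEB, against 4.77, 2.66 and 4.64 CPM in basal duct and 1.27, 6.59 and 3.98 CPM in basal TEB. The log2 difference of basal from luminal cells was -8.16 ± 0.63 (SE) in ducts and -8.09 ± 0.62 in TEBs (edgeR, FDR = 5.12e-06 and 2.23e-06). Krt19 had log2 differences of -6.14 ± 0.45 in ducts and -7.60 ± 0.46 in TEBs (edgeR, FDR = 3.31e-06 and 4.89e-07). It followed Krt7 in TEBs, whereas in ducts Krt6a did, at -6.41. Krt8 had the narrowest luminal difference, -3.82 ± 0.29 in ducts and -4.57 ± 0.29 in TEBs, and basal cells also held it: 355, 367 and 305 CPM in basal duct. Krt8 is thus a luminal keratin by difference but a measurable transcript of the sorted basal population.

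Krt6a was a luminal keratin in these libraries. It lay at 340.2 and 125 CPM in luminal duct and at 349, 150.7 and 183 CPM in luminal TEB, against 2.73, 1.26 and 4.21 CPM in basal duct and 0.231, 2.46 and 1.43 CPM in basal TEB. The log2 difference of basal from luminal cells was -6.41 ± 0.74 in ducts and -7.26 ± 0.76 in TEBs (edgeR, FDR = 6.88e-05 and 2.34e-05). Its value is less certain than those of the other members, since 49.5% of its 80-base words in GENCODE transcripts also occur in another gene, mostly in Krt6b (31.6%), and it overlaps the lncRNA Gm49428. Markers of the epidermis, another tissue known for Krt6a, were low: the 8 genes summed to between 17.6 and 31.8 CPM in luminal duct, between 3.99 and 29.3 CPM in luminal TEB and between 2.42 and 14.9 CPM in basal cells. Filaggrin (Flg) had 0 CPM in all 11 libraries. Involucrin (Ivl), of cornifying epidermis, was high in the same 2 libraries as Krt6a, with 17.9 CPM in luminal duct replicate 1 and 22.2 CPM in luminal TEB replicate 1, against at most 0.263 CPM in any other library. The part of epidermal cells in the Krt6a level was not tested. For Krt8, 22.2% of words were shared, nearly all with the pseudogene Krt8-ps, for Krt5 6.99% and for Krt14 5.13%. The other 6 members shared none.

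Among the basal keratins, the difference was widest for Krt14, Krt5 and Krt17, with log2 values of 7.19 ± 0.64, 6.90 ± 0.64 and 6.23 ± 0.51 in ducts and 7.60 ± 0.55, 6.79 ± 0.53 and 6.99 ± 0.44 in TEBs. Krt15 and Krt23 differed less, by 4.19 ± 0.43 and 3.42 ± 0.29 in ducts and by 3.58 ± 0.35 and 4.54 ± 0.26 in TEBs. Luminal duct libraries held Krt15 at 24.9 and 46.8 CPM, the highest level of any basal keratin there. Its luminal duct mean was 5.47% of the basal duct mean, and that of Krt23 was 9.31%, against 1.34% for Krt17, 0.84% for Krt5 and 0.684% for Krt14.

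**Figure D2:**
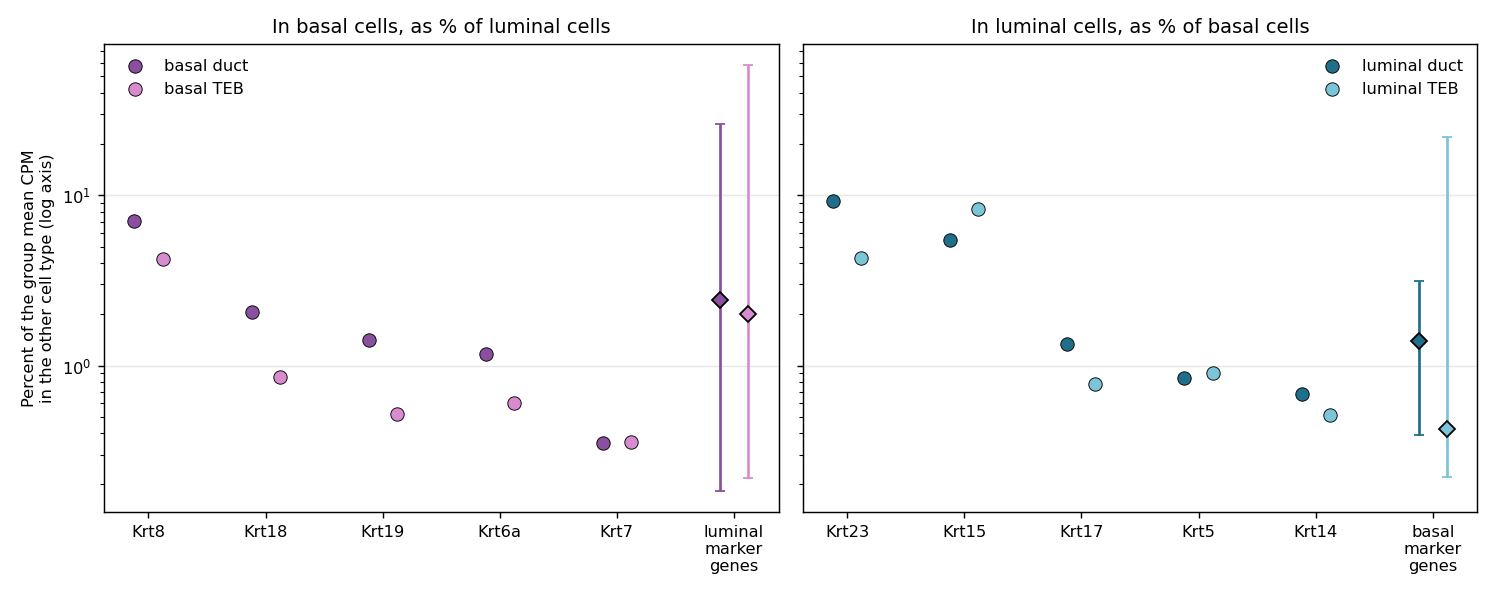
Group mean CPM of each keratin in the layer where it is low, as a percent of the mean in the other layer of the same structure, on a log axis. Circles are keratins, and diamonds with bars give the median and range over the 13 luminal or 10 basal genes that are not keratins. Krt8 in basal cells (7.10% in ducts) and Krt23 and Krt15 in luminal cells lie above the other keratins of their panels.

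The low level of each keratin in the other layer was set beside that of the marker genes, since cells of one layer in the other gate add such RNA. The 13 luminal markers in basal duct had a median of 2.42% of their luminal duct level, with a range from 0.184% to 26.3%. Krt8 stood at 7.10%, Krt18 at 2.06%, Krt19 at 1.41%, Krt6a at 1.18% and Krt7 at 0.349%. In basal TEB the marker median was 1.99%, and the same keratins stood at 4.20%, 0.854%, 0.516%, 0.604% and 0.356%. Krt7, Krt18 and Krt19 are thus spread over a wide range of residual levels within the same basal libraries, and the part of luminal cells in them was not tested. In luminal cells the 10 basal markers had a median of 1.40% of their basal level in ducts and 0.425% in TEBs.

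The second comparison asked how basal keratins differ between TEBs and ducts. In basal cells 5 of 10 members were called and all 5 were lower in TEBs, where 1.32% of all genes were called and 1.16% were called lower. They were 4 of the 5 basal keratins, Krt14, Krt15, Krt5 and Krt17 but not Krt23, and the luminal keratin Krt18. The TEB libraries did not overlap the duct libraries for 7 members, the 5 called with Krt8 and Krt19, against 20.8% of all genes. The median log2 difference was -1.63 over the 10 members and -0.03 over all genes.

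Krt15 lay at 867, 602 and 497 CPM in basal duct and at 147, 136 and 83.0 CPM in basal TEB. All TEB libraries lay far below the lowest duct library. The log2 difference was -2.43 ± 0.34 (edgeR, FDR = 0.00505), leaving 18.6% of the duct mean. Krt14 lay at 2614, 2853 and 1789.6 CPM in ducts and at 275, 468 and 248 CPM in TEBs, a log2 difference of -2.87 ± 0.43 (edgeR, FDR = 0.00766) and 13.7% of the duct mean. Krt5, its type II partner, lay at 1826, 1528 and 1637 CPM in ducts and at 301, 469.9 and 243 CPM in TEBs, with a difference of -2.30 ± 0.43 (edgeR, FDR = 0.0249). In each of these genes basal TEB replicate 2 or 1 was the highest TEB library and replicate 3 the lowest. Krt17 lay at 2072, 1594 and 1158 CPM against 390.5, 465 and 387 CPM, a difference of -1.96 ± 0.35 (edgeR, FDR = 0.0201).

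Krt18 was the 1 luminal keratin called in basal cells by edgeR's quasi-likelihood test. It lay at 59.2, 102 and 70.6 CPM in basal duct and at 19.8, 20.5 and 18.5 CPM in basal TEB. The 3 TEB libraries were nearly equal and none came near the ducts. The log2 difference was -1.98 ± 0.23 (edgeR, FDR = 0.00197). Krt8, its partner, lay at 202, 215 and 201 CPM in basal TEB, with a difference of -0.73 ± 0.25 that was not called (edgeR, FDR = 0.215). DESeq2 did call Krt8, at -0.77 (FDR = 0.0107). The summed luminal markers in basal cells overlapped between the structures: they lay at 64.0, 87.5 and 137 CPM in ducts and at 105, 147 and 120 CPM in TEBs. By edgeR's quasi-likelihood test 0 of these 13 genes were called between basal TEB and duct, 3 had an unadjusted p below 0.05, and DESeq2 called 1. The 3 moved in opposite directions, with log2 differences of 1.07 for Kit, -3.49 for Cd14 and -3.54 for Tspan8. Kit rose from a mean of 32.8 to 68.6 CPM, a large part of the sum.

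Krt19, Krt7, Krt6a and Krt23 were not called in this comparison. Krt19 lay at 82.2, 40.1 and 49.5 CPM in ducts and at 22.9, 32.4 and 13.9 CPM in TEBs, a difference of -1.31 ± 0.36 (edgeR, FDR = 0.114). The groups did not overlap, and the call turned on the setting: DESeq2 and the likelihood ratio test gave FDR = 0.00183 and 0.0122, and without basal TEB replicate 2 the difference was -1.70 (edgeR, FDR = 0.047). Krt23 lay at 156, 127 and 179 CPM in ducts and at 177, 228 and 217 CPM in TEBs, overlapping ranges with a difference of 0.43 ± 0.23 (edgeR, FDR = 0.406). Krt7 and Krt6a were near their lowest levels in both structures, with differences of 0.01 ± 0.48 and -0.88 ± 0.63 (edgeR, FDR = 1 and 0.566).

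**Figure D3:**
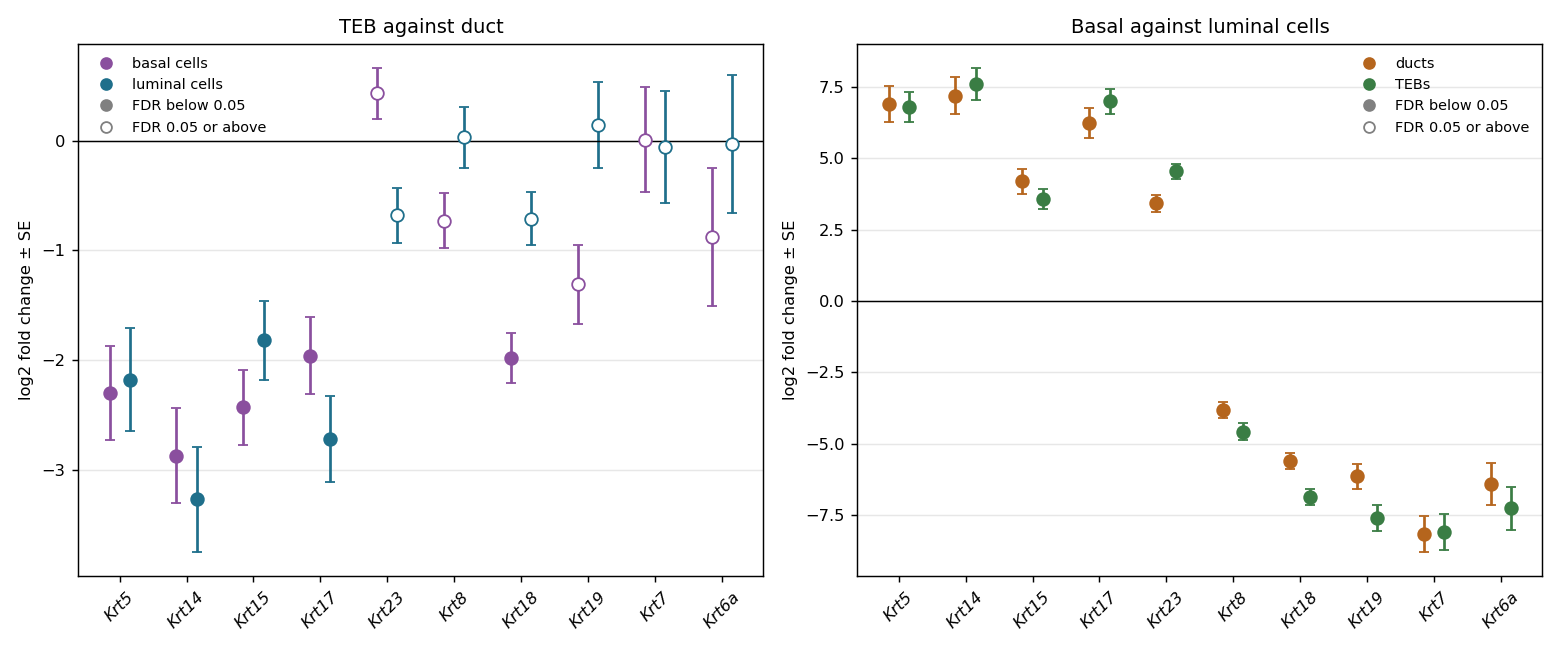
Log2 fold changes with their SE for the 10 keratins, TEB against duct in each layer on the left and basal against luminal cells in each structure on the right. Filled points passed an FDR of 0.05. The 4 keratins Krt5, Krt14, Krt15 and Krt17 lie below -1.8 in both layers on the left, and all points on the right are filled.

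Of these calls, Krt15 and Krt18 were kept in all 23 alternatives, with FDR up to 0.038 and 0.0234. Krt14 was lost without basal TEB replicate 3 (edgeR, difference -2.70, FDR = 0.0724). Krt5 and Krt17 were lost without basal duct replicate 1 or 2 or basal TEB replicate 1 or 3, with FDR up to 0.152 and 0.129, and with library size alone (edgeR, FDR = 0.0724 and 0.0548). Other genes of the basal layer moved beside them: the 10 basal markers summed to between 18112 and 22437 CPM in basal duct. In basal TEB they summed to between 6644 and 10253 CPM. The quasi-likelihood test of edgeR called 3 lower (Oxtr, Lgr5 and Tagln) and none higher, and 7 had an unadjusted p below 0.05. The likelihood ratio test and DESeq2 each called 7 lower and limma voom called 9 lower, with none higher. Fibroblast markers summed to between 432 and 856 CPM in basal duct and between 227 and 413 CPM in basal TEB. By edgeR's quasi-likelihood test 0 of these 7 were called and 0 had an unadjusted p below 0.05, and limma voom called 1 lower. Basal duct replicate 2 stood apart in markers of stromal cells, with endothelial, adipocyte and immune sums of 201, 187 and 84.0 CPM, against at most 20.7 and 36.7 CPM for endothelial and immune markers in the other basal duct libraries and 4.07 CPM for adipocyte markers in replicate 1. The part of other cell types in the keratin differences was not tested.

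The third comparison set TEBs against ducts in luminal cells. Here 4 of 10 members were called, and all 4 were basal keratins that were lower in TEBs, where 1.41% of all genes were called and 0.771% were called lower. The members Krt8, Krt19, Krt7 and Krt6a, which make up most of the luminal keratin, had log2 differences within 0.14 of 0. TEBs and ducts did not overlap for 6 members, against 43.7% of all genes, a share that is high because luminal duct has 2 libraries.

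The levels behind the 4 calls were low. Krt14 lay at 14.3 and 18.8 CPM in luminal duct and at 0.785, 3.07 and 1.23 CPM in luminal TEB, a log2 difference of -3.27 ± 0.48 (edgeR, FDR = 0.0107). Krt17 lay at 11.2 and 31.8 CPM against 2.78, 4.13 and 2.81 CPM, a difference of -2.72 ± 0.39 (edgeR, FDR = 0.0104). Every TEB library lay below both ducts for these genes. Krt5 lay at 7.69 and 20.3 CPM against 4.55, 3.18 and 1.46 CPM, and Krt15 at 24.9 and 46.8 CPM against 9.82, 13.4 and 7.28 CPM. Their differences were -2.18 ± 0.47 and -1.82 ± 0.36 (edgeR, FDR = 0.0454 and 0.0324).

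Luminal duct replicate 3 was the higher duct library for all 4. The basal markers moved with these genes: their sum was 113 CPM in luminal duct replicate 1 and 415 CPM in replicate 3. In luminal TEB it was 43.1, 44.1 and 37.0 CPM. The quasi-likelihood test of edgeR called 6 of 10 lower in TEBs (Oxtr, Mylk, Cnn1, Acta2, Tagln and Myh11). The likelihood ratio test and DESeq2 each called 8 lower, and limma voom called 1 lower. Fibroblast markers summed to 6.03 and 259 CPM in the same 2 duct libraries and to between 11.7 and 53.9 CPM in luminal TEB. Adipocyte markers summed to 0 and 75.1 CPM and immune markers to 12.7 and 66.4 CPM in luminal duct replicates 1 and 3. Whether basal cells in the luminal gate account for the 4 differences was not tested. Without luminal duct replicate 3 the differences were -3.07 for Krt14, -1.79 for Krt17, -1.33 for Krt5 and -1.29 for Krt15, and the first 2 were still called (edgeR, FDR = 0.0287, 0.0272, 0.271 and 0.176). Without luminal TEB replicate 3 none was called, with FDR from 0.0568 to 0.155, and without luminal TEB replicate 2 the Krt14 difference was -4.03. Krt15 was also lost without luminal TEB replicate 1 or 2, and Krt5 without those or basal duct replicate 1, 2 or 3 or basal TEB replicate 3. Over the 23 alternatives the call was kept in 19 for Krt17, 18 for Krt14, 14 for Krt15 and 9 for Krt5. Library size alone and both limma voom fits each lost all 4 calls, and with only the groups compared Krt17 alone was kept.

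Krt19, Krt8 and Krt18, the abundant luminal keratins, were not called between the structures by edgeR. Krt19 lay at 5005 and 3089 CPM in luminal duct and at 4773, 4018 and 4602 CPM in luminal TEB, a difference of 0.14 ± 0.39 (edgeR, FDR = 0.897). Krt8 lay at 6336 and 3304 CPM against 5164, 4684 and 4867 CPM, a difference of 0.03 ± 0.28 (edgeR, FDR = 0.994). For both, the TEB libraries fell between the 2 duct libraries. Krt18 lay at 3960.4 and 3518 CPM in ducts and at 2399, 2144 and 2336 CPM in TEBs, so it did not overlap, but its difference of -0.71 ± 0.24 was not called (edgeR, FDR = 0.17). DESeq2 and limma voom called it, with FDR = 0.0167 and 0.0156. Krt23 lay at 14.8 and 13.8 CPM against 6.59, 12.2 and 8.05 CPM, a difference of -0.68 ± 0.25 (edgeR, FDR = 0.209). Of the 13 luminal markers, edgeR's quasi-likelihood test called 0 between luminal TEB and duct, with 2 at an unadjusted p below 0.05. By limma voom 3 were called lower and 0 higher, with 10 at an unadjusted p below 0.05.

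The fourth comparison tested whether the TEB difference of a keratin was itself different in basal and luminal cells. Of the 10 members 0 were called by edgeR's quasi-likelihood test, 3 had an unadjusted p below 0.05, and 0.443% of all genes were called. Krt18 had the lowest FDR, with an interaction of -1.27 ± 0.33 (edgeR, FDR = 0.132). It was the 1 member called by DESeq2 (FDR = 0.00427) and by the likelihood ratio test (FDR = 0.0168), which called 4.10% and 3.62% of all genes. Krt23 differed by 1.11 ± 0.34 (edgeR, FDR = 0.18), with a positive value in basal and a negative one in luminal cells, and Krt19 by -1.45 ± 0.53 (edgeR, FDR = 0.239). For Krt5 and Krt14 the interactions were -0.11 ± 0.63 and 0.40 ± 0.62, intervals too wide to show that both layers change alike. The 2 TEB comparisons do not share libraries.

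**Figure D4:**
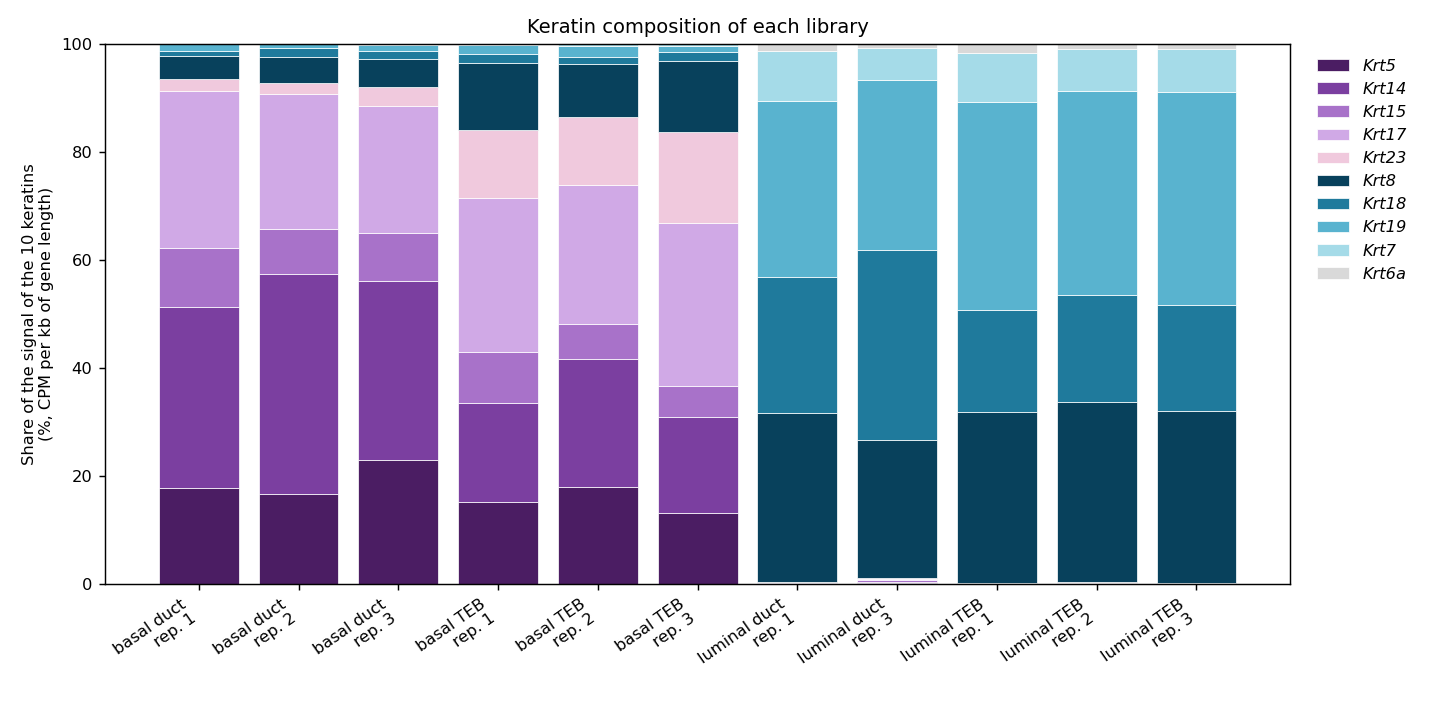
Share of each keratin in the summed CPM per kb of the 10 keratins, in percent, for each library. In basal duct Krt14, Krt17 and Krt5 fill most of the bar. Krt23 (2.56% to 13.9%) and Krt8 (4.73% to 11.8%) take larger shares in basal TEB, and Krt18 a smaller share in luminal TEB (19.5%) than in luminal duct (30.2%).

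The levels were next compared between genes, per length. In basal duct the order was Krt14 (1457 ± 336 CPM per kb, SD, n = 3), Krt17 (1064 ± 303), Krt5 (759.8 ± 68.8), Krt15 (381 ± 111), Krt8 (189.6 ± 18.4), Krt23 (99.9 ± 16.9), Krt18 (55.1 ± 15.7), Krt19 (41.6 ± 16.1), Krt7 (2.54 ± 0.747) and Krt6a (1.21 ± 0.652). The ranges of Krt14 with Krt17, Krt17 with Krt5, Krt18 with Krt19 and Krt7 with Krt6a overlapped, and the other neighbours were apart. In basal TEB Krt17 came first (274 ± 29.2), followed by Krt14 (199 ± 72.1), Krt5 (154 ± 53.8), Krt23 (135 ± 17.7) and Krt8 (114 ± 4.32), and each of these overlapped the next. The steep order of the ducts was thus compressed in TEBs, with Krt23 and Krt8 at levels of the same size as Krt5 and Krt14. Krt15 (70.9 ± 19.9), Krt19 (16.8 ± 6.73), Krt18 (14.0 ± 0.709), Krt7 (2.49 ± 1.68) and Krt6a (0.609 ± 0.495) followed.

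In luminal duct Krt19 (2943 ± 985 CPM per kb, SD, n = 2), Krt18 (2671 ± 223) and Krt8 (2670.4 ± 1188) overlapped, above Krt7 (727 ± 438) and Krt6a (103 ± 67.5). In luminal TEB Krt19 (3247 ± 288, n = 3), Krt8 (2717 ± 134), Krt18 (1638 ± 94.9), Krt7 (699 ± 109) and Krt6a (101 ± 47.2) were each apart from the next. The basal keratins stood below 21 CPM per kb in luminal duct, from Krt15 (20.8 ± 9.04) to Krt5 (6.39 ± 4.06), and below 6 CPM per kb in luminal TEB, from Krt15 (5.91 ± 1.78) to Krt14 (1.02 ± 0.729).

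All keratin genes together took 0.706% ± 0.114 of counts in basal duct and 0.160% ± 0.0747 in basal TEB, and 1.35% ± 0.634 and 1.58% ± 0.0965 in luminal duct and TEB. Per length, the keratin sum was 4098 ± 737 CPM per kb in basal duct and 1010.4 ± 185 in basal TEB, with ranges that did not overlap. In luminal duct and TEB the sums of 9249 ± 2914 and 8474 ± 664 did overlap. The 10 members made up from 97.0% to 99.3% of these sums as group means. Krt5, Krt14, Krt15, Krt17 and Krt23 gave 92.8% ± 0.764 of the members' signal in basal duct and 84.7% ± 1.45 in basal TEB, and 0.739% ± 0.495 and 0.196% in luminal duct and TEB.

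**Figure D5:**
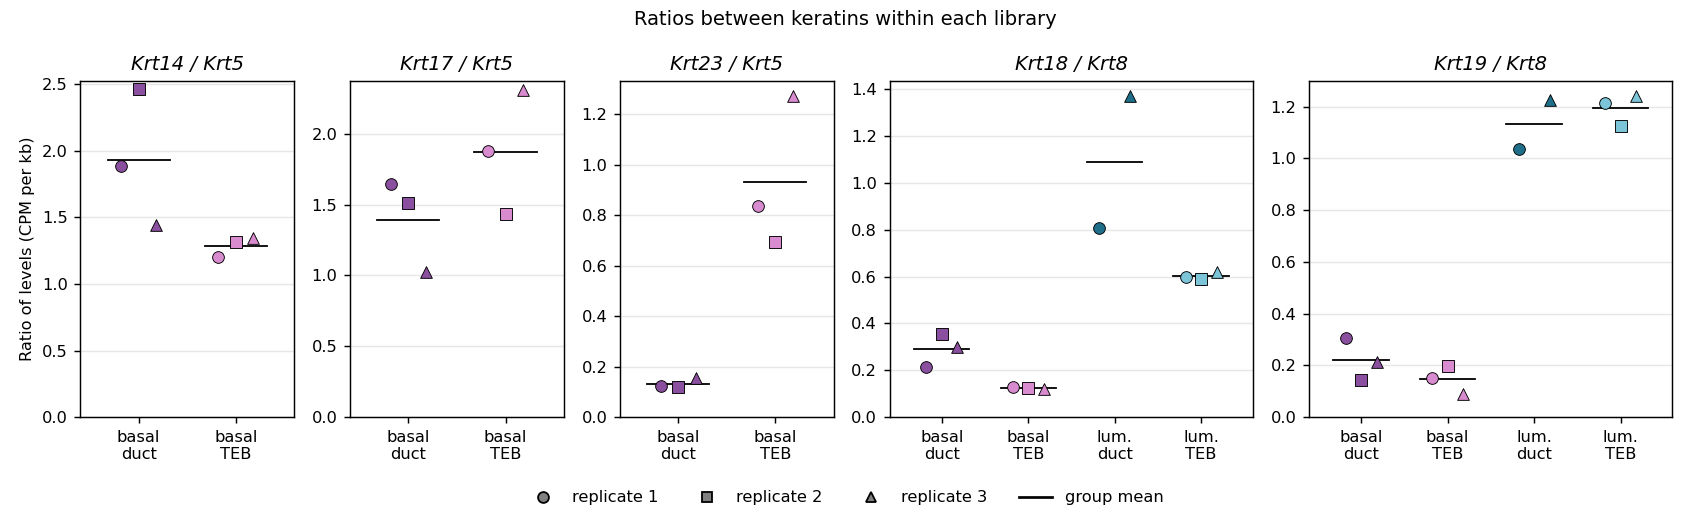
Ratios of CPM per kb between keratins within each library, by group, with the group mean as a bar. Ratios to Krt5 are shown for basal cells only. The 3 basal TEB libraries lie above all basal duct libraries for Krt23 to Krt5 and below them for Krt18 to Krt8.

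Ratios between members within a library do not depend on the scaling of that library. Krt18 to Krt8, the type I to type II ratio of the simple epithelial pair, was 0.215, 0.357 and 0.299 in basal duct and 0.126, 0.123 and 0.119 in basal TEB. In luminal cells it was 0.806 and 1.37 in ducts and 0.599, 0.590 and 0.619 in TEBs. In both layers every TEB library was lower than every duct library, and the TEB libraries of a layer were close to each other. Krt23 to Krt5 was 0.121, 0.118 and 0.155 in basal duct and 0.834, 0.691 and 1.27 in basal TEB. Krt14 to Krt5, the ratio of the basal pair, was 1.93 ± 0.512 and 1.29 ± 0.0757, and the library ranges from 1.44 to 2.46 and from 1.20 to 1.35 did not overlap. Krt8 to Krt5 did not overlap either, from 0.226 to 0.292 in basal duct and from 0.555 to 1.00 in basal TEB. In luminal cells, where Krt5 was low, it ran from 198 to 999 in ducts and from 1377 to 4033 in TEBs. The ratios of Krt17 to Krt5 and of Krt19 to Krt8 overlapped between the structures. Krt17 to Krt5 ran from 1.03 to 1.64 in basal duct and from 1.43 to 2.31 in basal TEB. Krt19 to Krt8 ran from 0.143 to 0.304 in basal duct and from 0.0905 to 0.198 in basal TEB. In luminal duct and TEB it ran from 1.04 to 1.23 and from 1.13 to 1.24. These ratios were described without a test.

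The 44 other keratin genes were low, and 28 passed the filter. By edgeR's quasi-likelihood test 0 of the 28 were called between TEB and duct in basal cells (8 at an unadjusted p below 0.05, 2 called by DESeq2) and 0 in luminal cells (3 at an unadjusted p below 0.05, 0 called by DESeq2 and 1 by the likelihood ratio test). Between the layers, 4 were called higher and 7 lower in basal cells of ducts, and 3 and 7 in TEBs. Krt42 was the most abundant basal one, with 23.4 ± 9.73 CPM in basal duct and 1.41 ± 0.800 CPM in luminal duct. Krt4, a type II keratin of stratified mucosa, was luminal, with 23.0 ± 8.45 CPM in luminal duct and 29.9 ± 32.1 CPM in luminal TEB against means of at most 0.292 CPM in basal cells. Krt78, Krt6b and Krt87 were also called higher in luminal cells of both structures, and Krt80 of TEBs. Krt77 rested on 1 library, with 49.1 CPM in luminal duct replicate 1 and 0.0411 CPM in replicate 3. Krt16, a skin keratin that pairs with Krt6 genes, was not called in these comparisons, at 16.9 ± 4.91 CPM in basal duct and 2.61 ± 1.42 CPM in basal TEB.

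The anchors of keratin filaments were read beside the members. Of 17 partners and cytolinkers, 4 were called between basal TEB and basal duct, all lower in TEBs. Plakophilin 1 (Pkp1), of the desmosomal plaque, went from 169 ± 48.6 to 43.6 ± 13.9 CPM, a log2 difference of -1.95 (edgeR, FDR = 0.00545). Dystonin (Dst), a plakin that links keratins to hemidesmosomes, differed by -1.40, integrin beta 4 (Itgb4), of the hemidesmosome, by -1.24, and epiplakin (Eppk1) by -2.44 (edgeR, FDR = 0.00698, 0.0213 and 0.022). Without basal TEB replicate 1 and luminal duct replicate 3, Eppk1 was no longer called (edgeR, difference -2.13, FDR = 0.0563). The list's median was -0.24, against -0.03 over all genes, so the 4 do not stand for the list. In luminal cells 0 of the 17 were called by edgeR, 6 had an unadjusted p below 0.05 and DESeq2 called 3. Pkp1 was the 1 gene of the list called in the interaction, at -2.69 (edgeR, FDR = 0.0199), where 7 of 17 had an unadjusted p below 0.05, DESeq2 called 6 and limma voom 4. Between the layers, 7 were higher and 5 lower in basal than in luminal ducts, and 5 and 9 in TEBs. Collagen XVII (Col17a1), of the hemidesmosome, was 6.82 and 9.10 log2 units higher in basal cells of ducts and TEBs, and envoplakin (Evpl) 3.38 and 3.06 units lower.

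Of 12 genes for other intermediate filaments, 10 were tested. In basal cells 0 were called between TEB and duct by edgeR, with 4 at an unadjusted p below 0.05 and 3 called by DESeq2, and in luminal cells lamin B1 (Lmnb1) was called, at 1.33 (edgeR, FDR = 0.0395). Without basal TEB replicate 1 and luminal duct replicate 3, that call was lost. Vimentin (Vim) and synemin (Synm) were called higher in basal cells, by 3.68 and 5.33 log2 units in ducts and by 5.49 and 5.26 units in TEBs.

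Of 15 transcription factors of keratin-expressing epithelia, 0 were called between basal TEB and basal duct by edgeR, 3 had an unadjusted p below 0.05 and DESeq2 called 3. Trp63, whose product binds half-sites of the kind matched in the Krt5 promoter, lay at 468 ± 8.46 CPM in basal duct. In basal TEB it lay at 357 ± 42.9 CPM, a difference of -0.39 ± 0.53 (edgeR, FDR = 0.793). Its duct libraries (461 to 478 CPM) and TEB libraries (318 to 403 CPM) did not overlap, as for 20.8% of all genes. The SE comes from the model over all 11 libraries, with luminal duct at 3.44 and 0.206 CPM, and not from the basal libraries alone. It is too wide to show that Trp63 is unchanged. In luminal cells Gata3 and Tfap2c were called lower in TEBs, by -1.23 and -1.06 (edgeR, FDR = 0.0241 and 0.0429). Both calls were lost without basal TEB replicate 1 and luminal duct replicate 3, at -1.06 and -0.97 (edgeR, FDR = 0.078 and 0.0862). Between the layers, 3 were higher and 5 lower in basal than in luminal ducts, and 3 and 6 in TEBs. Trp63 was higher in basal cells by 7.92 and 8.42 log2 units and Tfap2c by 2.87 and 3.74, and Sox9 was lower by 2.34 and 3.24 units.

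Across the 11 libraries, the genes with the pattern most like the mean log2 CPM of Krt5 and Krt14 were Cnn1 (Pearson r = 0.9941), Tagln (0.993) and Boc (0.9921), among 7854 candidates. The first 2 are smooth muscle genes of myoepithelial cells. For Krt8 and Krt18 they were Cyb561 (0.997), Mcur1 (0.9956) and Arpc1b (0.9911). These values describe libraries that fall into 2 layers, and share that split.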

How the data were processed

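RNA-seq counts were used for 11 libraries in 4 groups, set by the sample titles. The authors prepared TruSeq RNA v2 libraries, sequenced 80 bp paired-end reads, aligned them to mm10 and counted them per Entrez gene with Rsubread and its inbuilt RefSeq annotation (featureCounts, per the submitters' processing notes). The deposited values are whole counts, not normalized. The authors left out 1 luminal duct sample that had too few cells. Rows of the RefSeq table gave symbols for 25275 of 27179 identifiers (93.0%).

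Genes were filtered with filterByExpr of edgeR 4.0.16 (minimum count 10, minimum total 15), scaled by TMM and fitted in 1 model over 4 groups in R 4.3.3. The quasi-likelihood test with Benjamini-Hochberg adjustment over 17370 genes was used at an FDR of 0.05, and each SE was taken from the log2 fold change and its F statistic. The common biological coefficient of variation was 0.704. Alternatives used DESeq2 1.42.0 and limma 3.58.1, and left out each library in turn. Scripts were tested on simulated data.

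Named were all 10 members, up to 8 other keratins with a group mean of at least 10 CPM, up to 4 called genes with the lowest FDR in each list and comparison, and the 3 genes most like each keratin pair (mean log2 CPM of at least 4). Oxtr, Lgr5, Tagln, the basal markers called in luminal cells, and Kit, Cd14 and Tspan8 were named to account for small counts. The members and lists were chosen with earlier results of these data known. Besides the lists in the results, 0 of 6 immune genes, 0 of 6 endothelial and 0 of 4 adipocyte genes tested were called between TEB and duct in either layer by edgeR. Of these, 2 immune genes in luminal cells and 1 endothelial and 1 adipocyte gene in basal cells had an unadjusted p below 0.05. Each other tool called at most 1 gene of a list in a layer. Of 7 proliferation genes, edgeR called 1 higher in basal TEB, 5 had an unadjusted p below 0.05, and DESeq2 called 4 higher. In luminal TEB edgeR called 0 of the 7, 6 had an unadjusted p below 0.05, and DESeq2 called 4 higher.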

Additional observations from a re-analysis of the deposited data

How the results depend on the processing

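The basal against luminal calls of all 10 keratins held in every alternative run. Of the single-gene values for all comparisons 625 of 690 kept their direction and side of the threshold. That count includes the basal against luminal values, genes never called, and only the lowest and highest leave-one-out value of each gene. It does not describe the TEB against duct calls, where Krt5 in luminal cells was kept in 9 of 23 alternatives. Between basal TEB and duct, 5 keratins were called, 7 by DESeq2 (with Krt8 and Krt19), 6 by the likelihood ratio test (with Krt19), 3 with library size alone (57 genes in all, 0.328%, with the median over all genes at -0.16), and from 2 to 6 with a library left out. Between luminal TEB and duct, 4 were called, 5 by DESeq2 (with Krt18), 0 with library size alone (10 genes in all, median 0.42), 1 with limma voom, with or without sample quality weights (Krt18, not among the 4), 1 with only the groups compared (Krt17), 2 without the 2 libraries of highest mitochondrial share, and from 0 to 4 with a library left out. In the interaction 0 were called, 1 by the likelihood ratio test, 1 by DESeq2 and from 0 to 1 with a library left out (Krt8 without luminal duct replicate 1, -1.30, edgeR FDR = 0.0367). The share of all genes called differed as well. Between basal TEB and duct it was 1.32% in the main test, 5.03% by DESeq2 and 4.07% by the likelihood ratio test. Between luminal TEB and duct it was 1.41%, 7.35% and 5.79% in the same order. There limma voom called 2.02%, or 1.78% with weights, and the fit of only the groups compared 3.92%. In the interaction the main test, DESeq2 and the likelihood ratio test called 0.443%, 4.10% and 3.62%. With library size alone the keratin sum of luminal TEB was 10216 CPM per kb. The cause of these shifts was not tested.

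Without the 2 libraries of highest mitochondrial share, 5 basal markers were called lower in basal TEB and 4 in luminal TEB, in place of 3 and 6. Genes called between basal TEB and duct numbered 230, against 707 by the likelihood ratio test, 874 by DESeq2 and 601 by limma voom. The labels do not say what a replicate number shares, so pairing is undecided. Over 15 pairs of the same number r ran from -0.07 to 0.16 (median 0.07, 3 above 0.1), against a median of -0.025 over 30 other pairs (1 above 0.1), and 7 of 11 libraries correlated best with their own number. With the replicate number as a block, 5 keratins were called in basal cells and 3 in luminal cells, where 125 genes were called in place of 245 and Krt5 had an edgeR FDR of 0.0772.

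These values changed sign. For Krt7 in basal cells (0.01) the value was -0.03 with DESeq2 size factors, -0.01 with a filter at a mean CPM of 1 or the likelihood ratio test, -0.05 by DESeq2, -0.02 by voom, 0 with only the groups compared or without mitochondrial genes, and from -0.60 to 0.40 with a library left out. For luminal cells, Krt6a was 0.28 with library size alone, 0.07 with the block and from -0.58 to 0.87 with a library left out, and Krt7 was 0.26, 0.02 by voom and from -0.57 to 0.75. Krt8 was -0.03 with DESeq2 size factors or by DESeq2, -0.01 with the CPM filter, 0 with quality weights, -0.35 without the 2 libraries and from -0.37 to 0.57 with 1 left out, and Krt19 was -0.15 and from -0.17 to 0.53 in the last 2. Among interactions, library size alone gave -0.07 for Krt14 and -0.26 for Krt7 (-0.04 by voom), leaving out the 2 libraries gave -0.14 for Krt17 and 0.09 for Krt6a, and leaving out 1 gave from -0.97 to 0.43 for Krt5, from -0.17 to 1.33 for Krt17 and from -0.72 to 0.59 for Krt7. With 2 luminal duct libraries, leaving out 1 assumes that the other varies like the remaining groups. Low counts limit Krt6a and Krt7 in basal cells.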
